A study of Mus musculus with 12 samples.

Results

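The 4 genes described here are Timp2, Oacyl, Mybpc1 and Ttyh1, taken from RNA-Seq of mouse AtT-20 cells that express forms of the transcription factor Pax7 or its relative Pax3. They were chosen by name because their transcript levels were higher in cells with the Q–GL– isoform of Pax7 than in cells with either GL+ isoform or with Pax3, so those differences are given below as a description, with no test. They are 4 of the 16385 genes in the table and 4 of the 12578 that passed a filter of at least 1 FPKM in at least 2 libraries (FPKM, sequenced fragments scaled to transcript length and to the size of the library). All 4 were at 1 FPKM or more in all 12 libraries, hence none passed the filter only through the cells in which it was high.

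AtT-20 is a mouse pituitary tumor cell line used as a model of corticotropes, the pituitary cells that secrete ACTH. Each construct was introduced with a retroviral vector and driven by the CMV promoter, and cells were kept as drug-resistant pools, so that no group is a single clone. The 6 groups hold 2 libraries each. Pax7-465 is a C-terminal deletion of Pax7 that stops after residue 465. Its label gives no Q or GL status, but the study's supplement describes the deletion mutants as Q+GL–. On that description Pax7-465 differs from Q–GL– by Q as well as by the deletion, and from Q+GL+ by GL as well as by the deletion, so that these changes cannot be told apart. NoTag is a Pax7 whose label gives neither the Q nor the GL status and whose name states that it lacks the tag, where the study describes Flag epitopes at both ends of its Pax7 constructs. Q–GL–, Q+GL+ and Q–GL+ are splice isoforms that lack or carry a glutamine (Q) and a glycine and leucine pair (GL) within the paired domain, a DNA-binding domain. Pax3 is the closest relative of Pax7. Cells without an introduced factor were not analysed here, so none of the values below says how far a gene was from its level in plain AtT-20 cells. Nothing states that the replicates came from separate infections, and the tests measure the spread between these libraries only.

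Pax7 is a pioneer factor, which means that it can find its DNA targets in closed chromatin and start their opening. In the intermediate lobe of the pituitary it specifies melanotropes, cells that share the hormone precursor POMC with corticotropes but cleave it further, with the convertase encoded by Pcsk2, to make melanocyte-stimulating hormone. Corticotropes and melanotropes also share the T-box factor Tpit, encoded by Tbx19.

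The introduced gene served as a check of the labels. Pax7 averaged 111 FPKM in Pax7-465, 158 in NoTag, 94.6 in Q–GL–, 101 in Q+GL+, 103 in Q–GL+ and 0.160 FPKM in Pax3 cells. Between Pax7-465 and Q+GL+ cells its log2 difference was 0.13, not past the test (limma, adjusted p = 0.39). Tbx19 was at 116 to 143 FPKM and Pomc at 5112 to 10680 FPKM in the 12 libraries. Defining markers of skeletal muscle, fibroblasts, endothelium and immune cells were at or near 0, their summed level reaching at most 1.34, 2.02, 0.150 and 0.658 FPKM. Only 2 of 6, 3 of 6, 1 of 3 and 2 of 3 of them were in the table, so these sums cover a part of each list. The sums reached 13.4 FPKM for astroglial markers (5 of 8 in the table) and 4.96 FPKM for those of other pituitary cells (2 of 8). Summed FPKM was 413794 to 483161 in 10 libraries but 627305 and 666609 in the NoTag libraries, which also held 733 genes that were at 0 in the other 10 libraries. The comparisons with NoTag are therefore kept apart.

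Timp2 encodes a secreted inhibitor of matrix metalloproteinases, and it was the most abundant of the 4 genes on the per-length FPKM scale in every library. It is on chromosome 11 (GRCm38, 118301069 to 118355740, minus strand, ENSMUSG00000017466). It was at 58.8 and 63.8 FPKM in Pax7-465, 100.4 and 106.8 in NoTag, 65.8 and 63.1 in Q–GL–, 29.2 and 30.3 in Q+GL+, 34.2 and 33.7 in Q–GL+ and 25.9 and 27.2 FPKM in Pax3 cells. From the highest mean to the lowest the groups ran NoTag, Q–GL–, Pax7-465, Q–GL+, Q+GL+ and Pax3. Only Q–GL– and Pax7-465 overlapped among neighbours in that order. The share of all genes without such overlap was not counted, so overlap is given here and below as a description. Another coding gene on the same strand, BC100451, lies within Timp2 and was at 0.591 to 1.03 FPKM.

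Oacyl encodes a predicted transferase of acyl groups. It lies on chromosome 18 (GRCm38, 65698268 to 65751601, plus strand, ENSMUSG00000046610). Its values were 7.12 and 7.65 FPKM in Pax7-465, 6.88 and 6.68 in NoTag, 11.1 and 10.6 in Q–GL–, 2.52 and 2.31 in Q+GL+, 4.34 and 4.11 in Q–GL+ and 1.69 and 2.08 FPKM in Pax3 cells. Q–GL– cells were highest, then Pax7-465, NoTag, Q–GL+, Q+GL+ and Pax3, with no overlap between neighbours. Oacyl was the only member whose highest mean was not in the NoTag libraries.

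Mybpc1 encodes a myosin-binding protein C of the sarcomere, best known from slow skeletal muscle. The gene is on chromosome 10 (GRCm38, 88518279 to 88605152, minus strand, ENSMUSG00000020061). Its levels were 7.66 and 9.02 FPKM in Pax7-465, 18.9 and 19.3 in NoTag, 9.11 and 9.49 in Q–GL–, 2.16 and 2.41 in Q+GL+, 3.34 and 2.66 in Q–GL+ and 2.33 and 2.56 FPKM in Pax3 cells. The order was NoTag, Q–GL–, Pax7-465, Q–GL+, Pax3 and Q+GL+, and the groups that overlapped were the 2 lowest. Of 6 muscle markers 2 were in the table, and they summed to 0.343 and 0.620 FPKM in Pax7-465, 1.28 and 1.34 in NoTag, 0.785 and 1.07 in Q–GL–, 0.290 and 0.511 in Q+GL+, 0.324 and 0.361 in Q–GL+ and 0.397 and 1.10 FPKM in Pax3 cells. These sums were highest in NoTag cells, as Mybpc1 was, and their part in its levels was not tested. The summed FPKM over all genes was highest in the NoTag libraries as well.

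Ttyh1 encodes a membrane protein of the tweety family, described as chloride channels and known from neurons and glia. It is on chromosome 7 (GRCm38, 4119408 to 4136708, plus strand, ENSMUSG00000030428). It was at 31.3 and 44.4 FPKM in Pax7-465, 59.9 and 62.9 in NoTag, 58.7 and 62.3 in Q–GL–, 18.3 and 20.8 in Q+GL+, 31.4 and 28.2 in Q–GL+ and 11.5 and 15.0 FPKM in Pax3 cells. NoTag and Q–GL– overlapped at the top and Pax7-465 overlapped with Q–GL+, followed by Q+GL+ and Pax3. The Pax7-465 libraries lay farther apart for Ttyh1 (37.8 ± 9.28 FPKM, SD, n = 2) than those of any other group did for the 4 genes. Of 8 astroglial markers 5 were in the table, and their sum was 8.73 to 9.55 FPKM in Q–GL– against 12.8 to 13.4 FPKM in Q–GL+ cells. Slc1a2, a glutamate transporter gene, was the most variable of them at 2.85 to 11.8 FPKM in the 12 libraries. Of the 4 markers tested between these groups 1 was higher in Q–GL– cells, as Ttyh1 was, namely the fatty acid-binding protein gene Fabp7 (0.59 on the log2(FPKM + 1) scale, limma, adjusted p = 0.032), which was at 0.439 to 1.81 FPKM in the 12 libraries, and 0 were lower, where 3.06% of all genes tested were higher and 1.11% lower. That call was lost in 4 of 12 alternatives, among them those without Q–GL– replicate 1 and without replicate 1 or 2 of the Q–GL+ cells. The part of these markers in the levels of Ttyh1 was not tested. The antisense genes 9430041J12Rik and D030047H15Rik that overlap Ttyh1 were at 0.0837 FPKM or less, in libraries prepared with strand information.

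**Figure D1:**
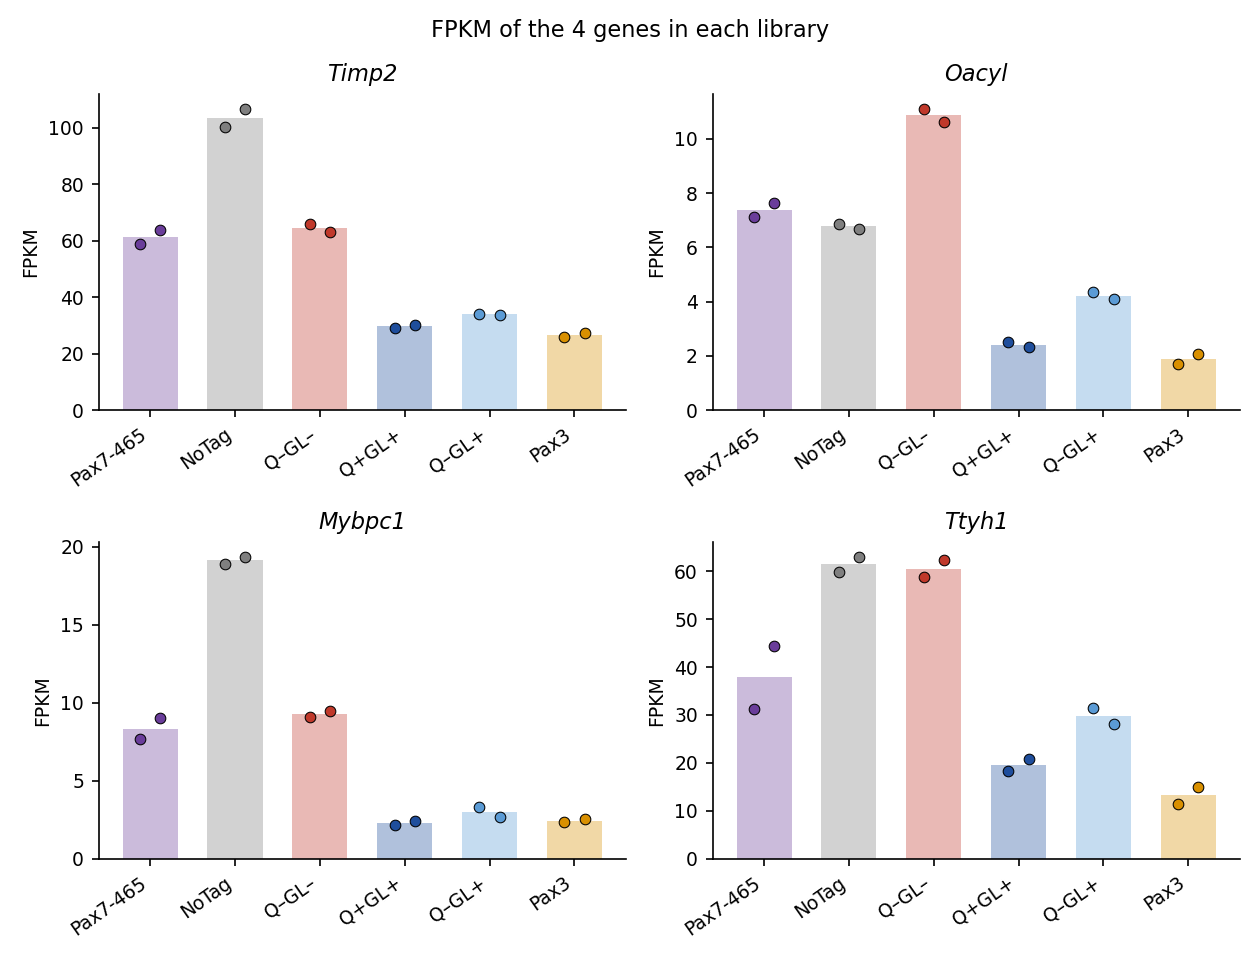
FPKM of each gene (vertical axes, starting at 0) in the 6 groups of AtT-20 cells. Points are the 2 libraries of a group and bars their mean. Pax7-465 stands beside Q–GL– for Timp2 and Mybpc1 and below it for Oacyl and Ttyh1. The GL+ and Pax3 groups, the low side of the choice, have the lowest means in every panel. For Ttyh1 the Q–GL+ libraries overlap those of Pax7-465.

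The differences that chose the 4 genes varied in size among them. Q–GL– exceeded Q–GL+ cells, whose label differs by GL alone, with a ratio of mean FPKM of 1.90 for Timp2, 2.57 for Oacyl, 3.10 for Mybpc1 and 2.03 for Ttyh1. Against Q+GL+ cells the ratios were 2.16, 4.50, 4.07 and 3.09 in the same order, and against Pax3 cells 2.43, 5.76, 3.80 and 4.57. Timp2 had the smallest ratio in all 3 comparisons, and the largest was that of Mybpc1 against Q–GL+ and that of Oacyl against Q+GL+ and Pax3. As background, Q–GL– cells had 3.06% of all genes tested higher and 1.11% lower relative to Q–GL+ (limma, adjusted p under 0.05; 385 and 139 genes, or 559 and 337 after quantile normalization). Compared with Q+GL+ cells 1.8% were higher in Q–GL– cells (226 genes higher and 45 lower, or 331 and 153 after quantile normalization) and compared with Pax3 cells 3.62% (455 and 90, or 531 and 360 after quantile normalization and 439 and 217 after median centring).

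The deletion mutant Pax7-465 played no part in the choice of the genes, so it shows where they stand in cells with another form of Pax7. All 4 genes rose in Pax7-465 relative to Q+GL+ cells. The log2 fold change, on the log2(FPKM + 1) scale used throughout, was 1.02 for Timp2 (standard error 0.07, adjusted p = 3.2e-05 from limma). It was 1.30 for Oacyl (standard error 0.10, adjusted p = 3.7e-05) and 1.50 for Mybpc1 (standard error 0.11, adjusted p = 3.2e-05). For Ttyh1 it was 0.90 (standard error 0.15, adjusted p = 0.016). In this comparison 0.867% of all genes tested were higher and 0.461% lower in Pax7-465 cells (109 and 58 genes, 1.33% in all, or 225 and 184 after quantile normalization). The low side of the comparison, the Q+GL+ libraries, was part of what chose the genes. The call for Ttyh1 was lost without Pax7-465 replicate 2 (0.65, adjusted p = 0.081), when Q+GL+ replicate 1 was left out (0.81, adjusted p = 0.12), when its replicate 2 was (0.98, adjusted p = 0.069) and with only these 2 groups in the fit (adjusted p = 0.11). The other 3 calls held under all 13 alternatives, with adjusted p of at most 9.6e-04.

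Relative to Pax3 cells, whose libraries also served in the choice, all 4 genes were again higher in Pax7-465 cells, while 0.859% of all genes tested were higher (108 genes, against 38 or 0.302% lower, 1.16% in all, or 177 and 103 after quantile normalization and 124 and 71 after median centring). The log2 fold changes were 1.18 for Timp2, 1.54 for Oacyl, 1.44 for Mybpc1 and 1.44 for Ttyh1, with adjusted p between 6.6e-06 and 8.2e-04 from limma. These 4 calls held under all 13 alternatives. This comparison and the previous one share the Pax7-465 libraries.

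Set against Q–GL– cells, Pax7-465 cells split the 4 genes in their values. The Q–GL– libraries, on the high side of the choice, were part of what chose the genes. Lower values in Pax7-465 cells are thus not independent of that choice. Timp2 stood at 95.1% and Mybpc1 at 89.7% of the Q–GL– mean, but Oacyl at 68.0% and Ttyh1 at 62.5%. None of the 4 passed the limma test, in which 0.445% of all genes did in either direction (56 genes, and 1354 at an unadjusted p under 0.05). The difference was −0.07 for Timp2 (95% interval −0.23 to 0.08, adjusted p = 0.79) and −0.14 for Mybpc1 (95% interval −0.38 to 0.09, adjusted p = 0.71). For Oacyl it was −0.50 (95% interval −0.71 to −0.29, adjusted p = 0.053) and for Ttyh1 −0.68 (95% interval −1.02 to −0.35, adjusted p = 0.10), and these 2 were at an unadjusted p under 0.05. Oacyl passed it with a filter of 5 FPKM (adjusted p = 0.046), after quantile normalization (0.044), after median centring (0.042) and without the trend in limma (0.039), but with any 1 of the 4 libraries left out its adjusted p was 0.14 to 0.34. Ttyh1 passed it without Pax7-465 replicate 2, the higher of the pair (−0.93, adjusted p = 0.023), and with the replicate number as a block (0.048), whereas without Pax7-465 replicate 1 it was at −0.44 (adjusted p = 0.40), and without replicate 1 or 2 of the Q–GL– cells at adjusted p of 0.35 and 0.48. Whether Oacyl and Ttyh1 differed from Timp2 and Mybpc1 in this respect was not tested. Pcsk2, the convertase gene, was at 21.4 ± 0.853 FPKM in Pax7-465 and 36.2 ± 0.565 FPKM in Q–GL– cells (SD, n = 2 each), and it fell by 0.73 in Pax7-465 relative to Q–GL– cells (standard error 0.07, limma, adjusted p = 0.0010).

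**Figure D2:**
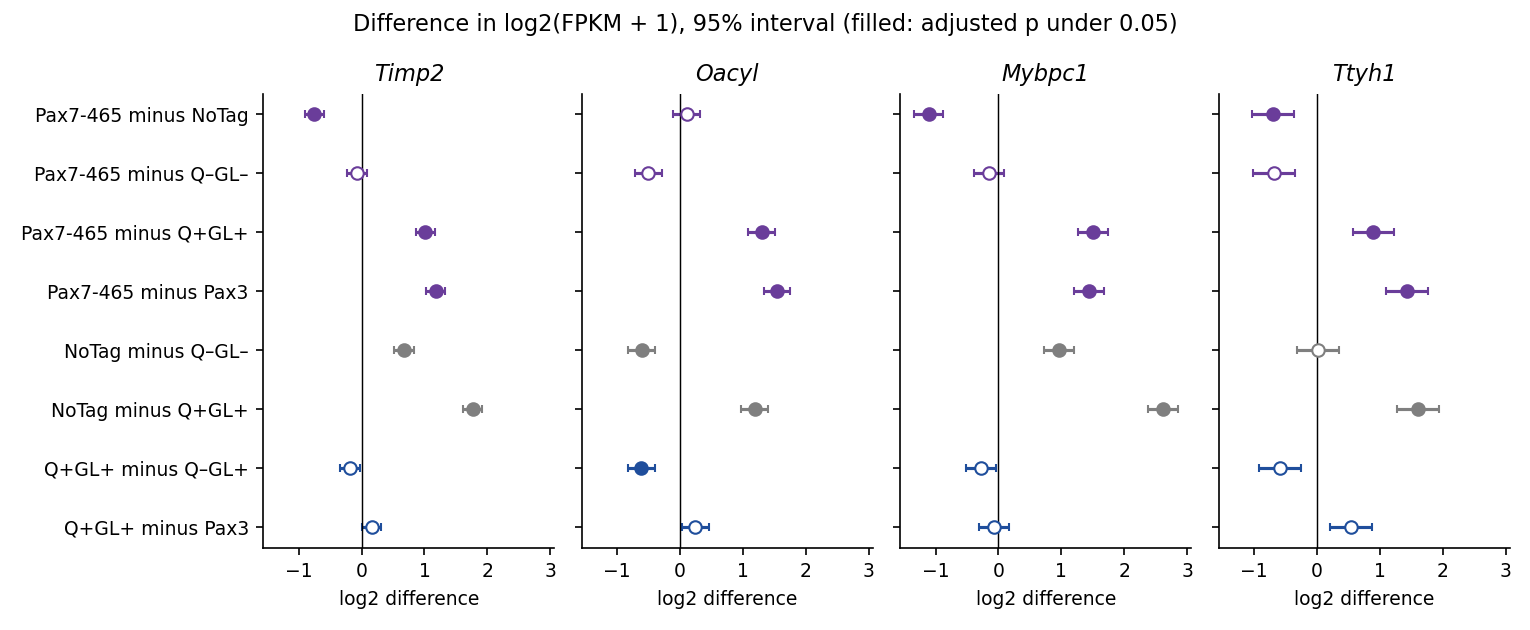
Difference in log2(FPKM + 1) between the groups named at the left, first minus second, with its 95% interval from the limma fit. Filled points have an adjusted p under 0.05, and colors follow the first group. All 4 genes are to the right of 0 in Pax7-465 minus Q+GL+ and Pax7-465 minus Pax3 (0.90 to 1.54), and all Pax7-465 minus Q–GL– points are open.

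Within the low groups the genes were closer together. The libraries of these groups were all part of what chose the genes, as the low side. Their closeness is thus not independent of that choice, although the choice did not compare them with each other. In Q+GL+ relative to Q–GL+ cells, whose labels differ by Q alone, Oacyl fell by 0.61 (standard error 0.10, limma, adjusted p = 0.012), 2.52 and 2.31 FPKM in Q+GL+ against 4.34 and 4.11 FPKM in Q–GL+ cells. This made 1 of 4 members lower, with 0.509% of all genes tested lower and 0.962% past the test in either direction. Leaving out replicate 1 or 2 of the Q+GL+ cells ended the call (adjusted p = 0.056 and 0.12), as did leaving out replicate 1 or 2 of the Q–GL+ cells (0.12 and 0.078). Timp2 had a difference of −0.18 (95% interval −0.34 to −0.03, adjusted p = 0.30), Mybpc1 of −0.28 (−0.52 to −0.04, adjusted p = 0.29) and Ttyh1 of −0.58 (−0.92 to −0.25, adjusted p = 0.11). Ttyh1 passed the test after quantile normalization (adjusted p = 0.031) and with only these 2 groups in the fit (adjusted p = 0.0048). All 4 values were thus below 0, and 1 of them was past the threshold.

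In the comparison of Q+GL+ with Pax3 cells none of the 4 genes passed the limma test, and 0.262% of all genes tested did in either direction (33 genes, 22 higher and 11 lower, or 59 and 74 after quantile normalization and 26 and 29 after median centring; 1285 genes at an unadjusted p under 0.05). The difference was 0.16 for Timp2 (95% interval 0.00 to 0.32), 0.24 for Oacyl (0.03 to 0.46), −0.07 for Mybpc1 (−0.31 to 0.17) and 0.54 for Ttyh1 (0.21 to 0.87), and all but Mybpc1 were at an unadjusted p under 0.05. Their intervals lay above 0, that of Timp2 by less than the 2 decimals printed. Both Q+GL+ and Pax3 cells were on the low side of the choice, so closeness between them is not independent of it.

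**Figure D3:**
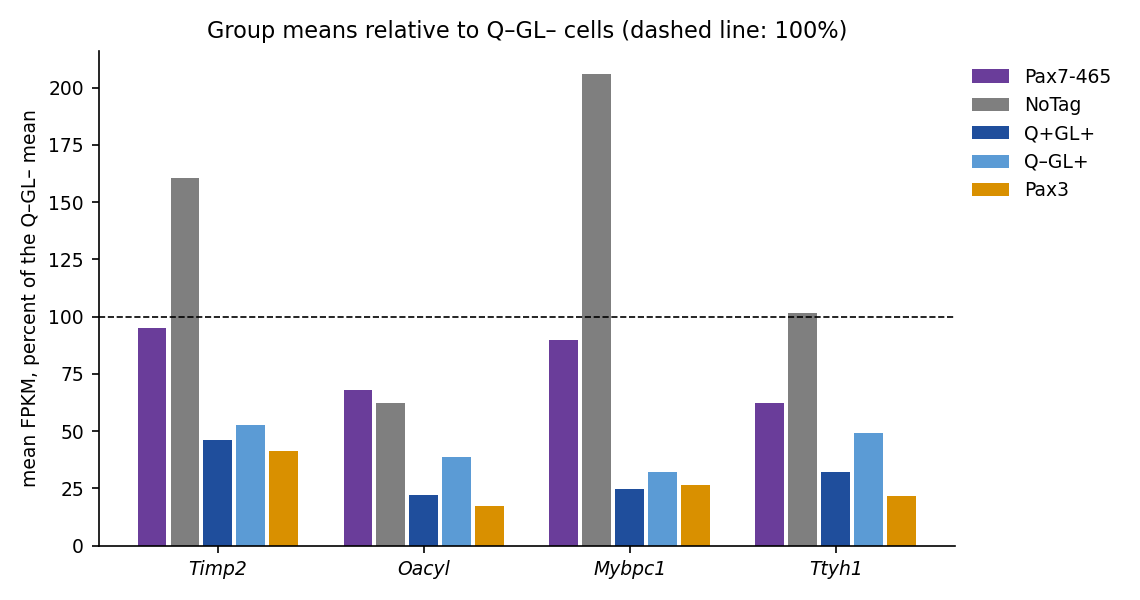
Mean FPKM of each gene in 5 groups as a percentage of its mean in Q–GL– cells (dashed line, 100%), 2 libraries per group. Pax7-465 bars reach 62.5% to 95.1%, and GL+ and Pax3 bars 17.4% to 52.7%.

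The NoTag libraries gave a different ranking. The Q–GL– libraries, with which they are compared first, were part of what chose the genes. Relative to Q–GL– cells, Timp2 was higher by 0.68 and Mybpc1 by 0.97 in NoTag cells (limma, adjusted p = 2.0e-05 and 3.2e-05), whereas Oacyl fell by 0.61 (adjusted p = 4.7e-04). Ttyh1 differed by 0.02 (95% interval −0.31 to 0.35, adjusted p = 0.93), and its sign turned to −0.14 after median centring. In means, NoTag cells held Timp2 at 161%, Mybpc1 at 206%, Ttyh1 at 101% and Oacyl at 62.4% of the Q–GL– level. This stands beside a background in which 31.7% of all genes tested were higher and 8.09% lower in NoTag cells (3984 and 1017 genes, or 2248 and 2527 after quantile normalization and 2264 and 2327 after median centring), with a median over all genes of 0.15. With each library centred on its median, Timp2 was higher by 0.51, Mybpc1 by 0.80 and Oacyl lower at −0.77, all past the test. Pax7 itself averaged 158 FPKM in NoTag and 94.6 FPKM in Q–GL– cells, and its part in these differences was not tested.

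Relative to Q+GL+ cells, all 4 genes were higher in NoTag cells, by 1.76 for Timp2, 1.19 for Oacyl, 2.62 for Mybpc1 and 1.60 for Ttyh1 (limma, adjusted p of at most 8.6e-06), and by 1.58, 1.0, 2.43 and 1.42 after median centring. Since 36.9% of all genes tested were higher in NoTag cells (4646 genes, against 1135 lower, or 2636 and 2942 after quantile normalization and 2714 and 2669 after median centring; median 0.18), the count of 4 is read against that share. The fold changes of the 4 genes exceeded the median by 1 unit of log2 or more, and that of Mybpc1 was the largest of the 32 differences tested on the 4 genes. The Q+GL+ libraries, the low side here, were part of what chose the genes, so neither the calls nor this excess are independent of that choice.

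Pax7-465 and NoTag are the groups of which neither served to choose the genes. In Pax7-465 relative to NoTag cells Timp2 fell by 0.75 (adjusted p = 7.6e-06), Mybpc1 by 1.11 (adjusted p = 9.1e-06) and Ttyh1 by 0.70 (adjusted p = 0.0030, limma), 3 of 4 members, where 37.9% of all genes tested were lower (4766 genes, against 999 higher, or 2500 lower and 2792 higher after quantile normalization and 2652 and 2438 after median centring; median −0.19). After median centring these 3 genes were still lower, at −0.56, −0.92 and −0.52. Oacyl had a difference of 0.11 (95% interval −0.10 to 0.32, adjusted p = 0.39), which passed the test as higher in Pax7-465 cells after quantile normalization (0.30, adjusted p = 0.020) and after median centring (0.30, adjusted p = 0.019).

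Genes with the most similar profiles were sought over the 10 libraries other than NoTag, as Pearson's r of log2(FPKM + 1) among the genes tested. These values describe the libraries that also define the groups, so no p is given. The 4 genes correlated with each other at r of 0.874 (Mybpc1 and Ttyh1) to 0.987 (Timp2 and Mybpc1). Most of these 10 libraries, those of Q–GL–, both GL+ groups and Pax3, had chosen the 4 genes as high in Q–GL– cells. High r among the 4 genes is thus not independent of that choice and is given as a description. Timp2 was closest to Lipc, hepatic lipase (r = 0.988), Mybpc1 (0.987) and Wfdc16, a gene with a WAP domain (0.985). Oacyl came closest to Lipn, another member of a lipase family (0.976), Lipc (0.975) and the uncharacterized 2210407C18Rik (0.975). Mybpc1 was closest to Cabp7, which encodes a calcium-binding protein (0.993), Timp2 (0.987) and Lipc (0.984). Gfra4, a receptor of the GDNF family (0.980), and 2210407C18Rik (0.971) were among the 3 genes closest to Ttyh1, the first place being held by another gene. Between 11 genes (Ttyh1) and 31 genes (Timp2) had an r above 0.95. The lists depended on the measure. By rank correlation (Spearman's rho) over the same 10 libraries, 0 of the 3 genes closest to Timp2 and 0 of the 3 closest to Mybpc1 stayed among the closest 3. For Oacyl 1 of the 3 stayed and for Ttyh1 2.

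Lipn averaged 3.90 FPKM in Pax7-465, 3.47 in NoTag, 8.72 in Q–GL–, 0.468 in Q+GL+, 1.05 in Q–GL+ and 0.307 FPKM in Pax3 cells, an order like that of Oacyl. Lipc was at 1.83, 1.11, 2.49, 0.320, 0.593 and 0.227 FPKM in the same groups. Gfra4 and Wfdc16 were low too, with group means of 0.237 (Pax3) to 1.83 FPKM (NoTag) and of 0.0264 (Pax3) to 1.32 FPKM (Q–GL–), around the filter of 1 FPKM. Cabp7 averaged 3.18 FPKM in Pax7-465, 6.85 in NoTag, 3.71 in Q–GL–, 0.460 in Q+GL+, 0.829 in Q–GL+ and 0.708 FPKM in Pax3 cells, like Mybpc1 with its highest level in NoTag. The NoTag libraries divided the list. With all 12 libraries Lipn stayed first for Oacyl (r = 0.976) and Cabp7 first for Mybpc1 (0.995), and Gfra4 came first for Ttyh1 (0.981). For Timp2, however, Lipc fell to place 1757 (0.748) and Wfdc16 to place 778 (0.819). For Mybpc1, Lipc fell to place 2173 (0.736).

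**Figure D4:**
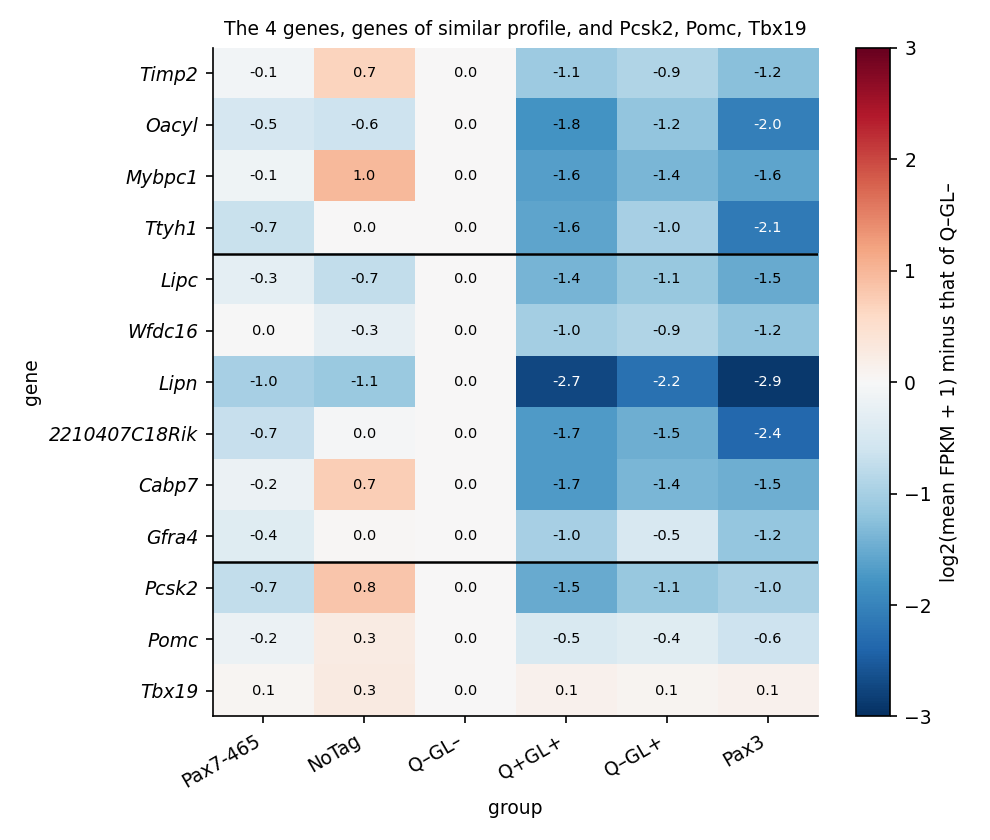
Log2(mean FPKM + 1) of each gene (rows) in the 6 groups (columns) minus its value in Q–GL– cells, from −3 (blue) to 3 (red). The upper block holds the 4 genes, the middle block the genes of similar profile named above, and the lower block Pcsk2, Pomc and Tbx19. Lipn reaches −2.9 in Pax3 cells, and Timp2, Mybpc1 and Cabp7 are above 0 in NoTag cells.

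Few relatives of the 4 genes passed the test, as few of all genes did. In Pax7-465 relative to Q+GL+ cells, 0 of 15 other TIMP and metalloproteinase genes, 0 of 9 sarcomere genes and 0 of 10 O-acyltransferase genes passed (limma), and 2, 2 and 1 of them were at an unadjusted p under 0.05. With 1.33% of all genes tested past the threshold, counts of 0 in lists of this size are near the background and single out none of the families. Their median log2 fold changes were −0.08, −0.0017 and −0.09 beside −0.01 for all genes. Of 17 tweety and other anion channel genes 1 rose, the calcium-activated chloride channel gene Ano1 (0.50, adjusted p = 0.043), a call lost in 7 of 13 alternatives (adjusted p up to 0.33). In Q–GL– relative to Q–GL+ cells, where 3.06% of all genes were higher and 1.11% lower, 1 of 15 genes of the TIMP and metalloproteinase list rose, Adam23 (0.53, adjusted p = 0.032), and 1 of 10 O-acyltransferase genes fell, Lpcat3 (−0.42, adjusted p = 0.024). Leaving out any 1 of the 4 libraries ended either call (adjusted p of 0.053 to 0.22). In Q–GL– relative to Pax3 cells Myom2, an M-band protein gene of the sarcomere, rose by 1.04 (adjusted p = 0.023; 3.62% of all genes were higher), a call lost when any 1 of those 4 libraries was left out (0.055 to 0.18).

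Of 7 other melanotrope genes, which the study or earlier results of these data had named so that their direction is not independent evidence, 3 rose in Pax7-465 relative to Q+GL+ cells and 0 fell, with a median of 0.28, where 0.867% of all genes tested were higher and 0.461% lower. The 7 include Pax7, the introduced gene. They were Eln, which encodes elastin (1.04, adjusted p = 1.0e-04), Megf11, a membrane protein gene with EGF repeats (0.80, adjusted p = 8.5e-04), and Pcsk2 (0.77, adjusted p = 2.5e-04, limma). All 3 calls held under the 13 alternatives. In Pax7-465 relative to Pax3 cells 4 of the 7 were higher, among them Pax7 itself, which Pax3 cells were not given, and 1 was lower, the imprinted gene Mest (−0.50, adjusted p = 0.0088), where 0.859% of all genes were higher and 0.302% lower. The call of Mest was lost without replicate 1 or 2 of the Pax7-465 cells (adjusted p = 0.066 and 0.057) and with only these 2 groups in the fit (0.10). In Q–GL– relative to Q–GL+ cells 1 of the 7 was higher, Pcsk2 (1.14, adjusted p = 5.8e-06), and 0 were lower, where 3.06% of all genes tested were higher and 1.11% lower. Against Q+GL+ cells 3 were higher and 0 lower (1.8% and 0.358% of all genes), of which the calls of Megf11 and Eln were each lost in 3 of 13 alternatives. Against Pax3 cells 4 were higher, again with Pax7 among them, and 0 lower (3.62% and 0.716% of all genes). Pcsk2 had other calls than the 4 genes in several comparisons. Its difference between Pax7-465 and Pax3 cells was 0.24 (adjusted p = 0.21), and besides its fall in Pax7-465 relative to Q–GL– cells it fell by 0.54 in Q+GL+ relative to Pax3 cells (adjusted p = 0.022), a call lost without replicate 1 or 2 of the Q+GL+ cells (0.16 and 0.12), without Pax3 replicate 2 (0.071) and with only these 2 groups in the fit (0.055). Whether Pcsk2 differed from the members in these comparisons was not itself tested.

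The genes around the 4 members were measured in the same libraries. Of 21 genes in the table whose start lies within 250 kb of a member's start, 15 were tested. In Pax7-465 relative to Q+GL+ cells their log2 differences ran from −0.19 to 0.28 and 0 of 15 passed the limma test (4 at an unadjusted p under 0.05). Likewise 0 of 15 passed in the other 4 tested comparisons without NoTag (1 to 5 at an unadjusted p under 0.05). With 1.33% of all genes past the test in the first comparison and 0.262% to 1.16% in the others, 0 of 15 is near the background and says nothing particular of these loci. In each of the 3 comparisons that had chosen the members, 1 of 15 passed, where 3.06% (Q–GL+), 1.8% (Q+GL+) and 3.62% (Pax3) of all genes were higher in Q–GL– cells. It was Lgals3bp, a secreted galectin-binding glycoprotein gene whose start is at −46.35 kb from that of Timp2, on its upstream side. Lgals3bp was higher in Q–GL– cells by 0.44 relative to Q–GL+ cells (limma, adjusted p = 0.012), by 0.43 relative to Q+GL+ cells (adjusted p = 0.019) and by 0.48 relative to Pax3 cells (adjusted p = 0.0058). Relative to Q–GL– cells, NoTag cells had 4 of 15 higher and 0 lower, where 31.7% of all genes tested were higher and 8.09% lower. That count is near the background and says nothing particular of these loci. For Lgals3bp the difference from Q–GL+ cells lost the call when replicate 1 or 2 of the Q–GL– cells or replicate 2 of the Q–GL+ cells was left out, and that from Q+GL+ cells without any 1 of the 4 libraries. Leaving out replicate 1 or 2 of the Q–GL– cells also ended the call against Pax3 cells (0.056 and 0.051).

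**Figure D5:**
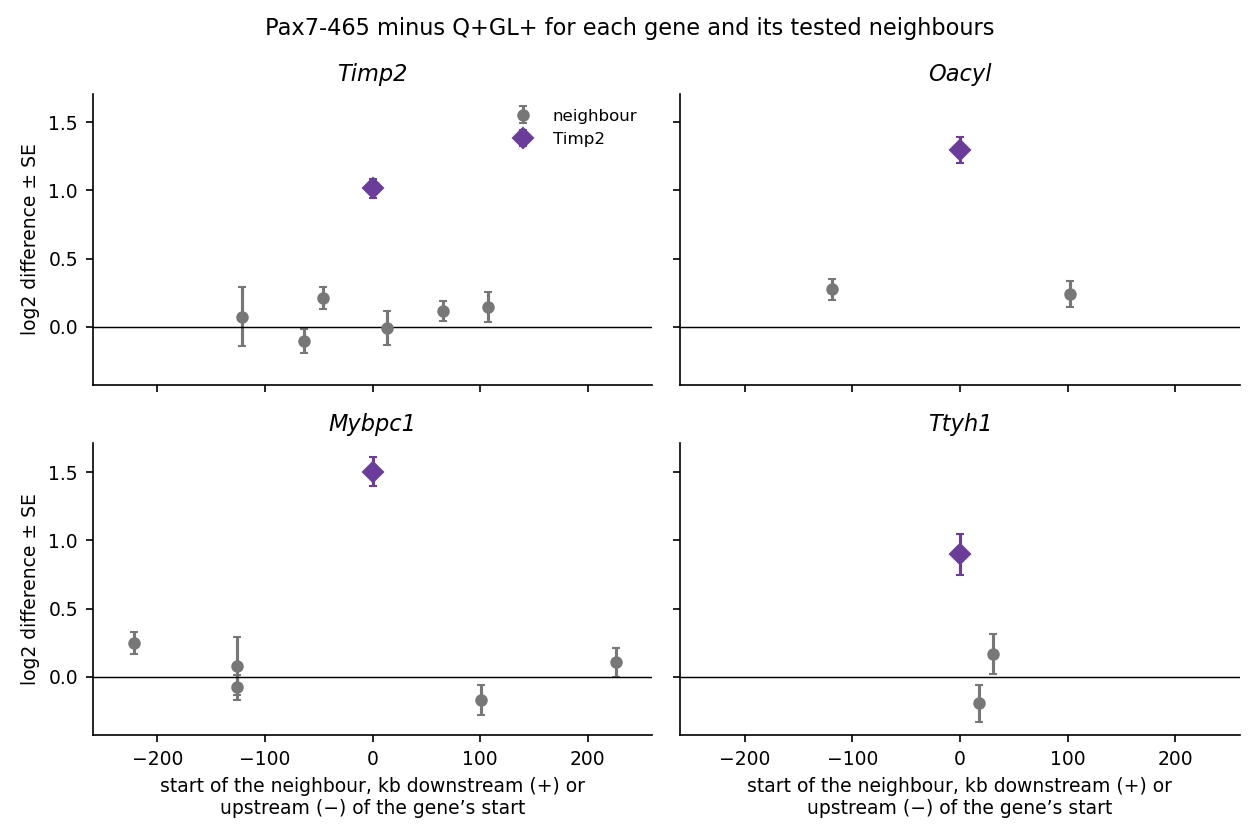
Log2 difference (± standard error) in Pax7-465 minus Q+GL+ cells for each of the 4 genes (diamonds) and its tested neighbours (circles), against the distance between their starts in kb. The members lie between 0.90 and 1.50 and the 15 neighbours between −0.19 and 0.28.

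Sequence before a start of transcription listed in the RefSeq promoter table (GRCm38.p6) was at hand for 3 of the 4 genes. It is shown for Mybpc1 and Ttyh1, both of which were higher in Pax7-465 than in Q+GL+ cells. Each run is the 250 bases before the start given in that table, on the strand of the gene, with CG dinucleotides in capitals. For Ttyh1 that start lies inside the gene as placed above, so the last part of its run is within the gene. The windows are chr10:88605153-88605402 for Mybpc1 and chr7:4119280-4119529 for Ttyh1. That of Timp2 (chr11:118355412-118355661) lies wholly inside the gene as placed above and is not shown.
Mybpc1: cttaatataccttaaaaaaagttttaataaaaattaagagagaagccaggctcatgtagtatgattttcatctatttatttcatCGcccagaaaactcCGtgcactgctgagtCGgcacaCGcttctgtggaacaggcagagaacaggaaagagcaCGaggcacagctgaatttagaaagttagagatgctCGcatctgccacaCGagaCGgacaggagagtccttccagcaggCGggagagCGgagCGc
Ttyh1: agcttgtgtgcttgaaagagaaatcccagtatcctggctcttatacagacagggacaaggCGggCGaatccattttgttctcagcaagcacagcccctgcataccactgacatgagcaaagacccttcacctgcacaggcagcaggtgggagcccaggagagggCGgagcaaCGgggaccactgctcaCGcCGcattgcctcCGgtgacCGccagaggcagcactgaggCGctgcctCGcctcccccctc
The 3 windows differed in composition. That of Timp2 was 68.0% G and C with 21 CG dinucleotides, Ttyh1 60.4% with 10 and Mybpc1 46.4% with 11, where the median of 32851 promoters was 52.4% with 6. Of the motifs searched on both strands, none was found in the 3 windows, namely TAATTA (a homeodomain core, in 4.84% of all promoters), TAAT and ATTA facing each other with 2 bases between them (0.384%), TCACACC (a T-box core, 3.33%) and GTCACGC (a paired-domain core, 1.78%).

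The study also assayed a site within Mybpc1 by PCR after chromatin immunoprecipitation, and it is shown because it lies inside a member gene. The 80 bp from 88603126 to 88603205 of chromosome 10 (GRCm38) begin 1947 bases inside the gene and are in intron 1 of both annotated transcripts that span them, in no exon. Gm48752, an unclassified transcript model on the opposite strand, covers them as well. The primers were as follows.
Mybpc1 sense: cacaaaccaaccctttcatc
Mybpc1 antisense: taataagtcaggtgctaggc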

How the data were processed

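Total RNA of AtT-20 cells was depleted of ribosomal RNA and sequenced in 12 libraries, 2 for each of 6 groups named by the titles. The deposited values are FPKM that the authors made per gene: Trimmomatic served for trimming, TopHat2 for mapping to GRCm38 (mm10) and HOMER for quantification, in versions not given in the sources used here for RNA-Seq. The table holds no read counts, so depth is unknown. The authors name edgeR for their own tests, and no count model was run here. Of the value columns, 4 were left unused.

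Values were taken as log2(FPKM + 1), a scale on which the change of low genes is understated. A minimum of 1 FPKM in 2 or more libraries left 12578 genes for a limma-trend fit (robust) with a coefficient per group, and Benjamini-Hochberg adjustment ran over all genes within a comparison, with a threshold of 0.05. The fit was tested on simulated data. Of 11 comparisons, 8 were tested for the members and 3 had chosen them. Alternatives were other filters (none, 5 FPKM), a pseudocount of 0.1, quantile normalization, median centring, no trend, only the groups compared, no NoTag libraries, a replicate block and each library left out. The members and lists were chosen with earlier results of these data known. Named genes were the members, Pax7, Tbx19, Pcsk2 and Pomc, for each member the 3 genes of highest r, tested genes starting within 250 kb, and up to 4 genes per list past the test. The gene with the highest r to Ttyh1 is not reported here. Starts were taken in the direction of transcription, and annotation came from GENCODE M21 and RefSeq. Tools were limma 3.58.1 and statmod 1.5.0 in R 4.3.3, and numpy 2.4.6, matplotlib 3.10.9 and pandas 2.3.3 in Python 3.11.15.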

Additional observations from a re-analysis of the deposited data

How the results depend on the processing

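Across the alternatives the 4 genes stayed higher in Pax7-465 than in Pax3 cells (4 called throughout) and than in Q+GL+ cells (3 to 4 called), and 0 passed between Q+GL+ and Pax3 cells. The count of 0 in Pax7-465 against Q–GL– cells became 1 with a filter of 5 FPKM, quantile normalization, median centring, no trend or the replicate block, and 0 to 1 with a library left out. The count of 1 in Q+GL+ against Q–GL+ cells became 2 after quantile normalization and 2 with only the groups compared, and 0 with any library left out. The one change of sign was that of Ttyh1 in NoTag against Q–GL– cells (0.02), at −0.15 after quantile normalization, −0.14 after median centring and −0.021 to 0.063 with a library left out (−0.015 without NoTag replicate 2 and −0.021 without Q–GL– replicate 1). Counts over all genes moved more. The 524 genes of Q–GL– against Q–GL+ became 896 after quantile normalization, 912 with only the groups compared and 163 to 218 with a library left out. The 271 genes against Q+GL+ became 484 after quantile normalization and 71 to 142, and the 545 against Pax3 became 891 and 187 to 725. The 121 genes of Q+GL+ against Q–GL+ cells became 419 after quantile normalization, 217 after median centring, 236 with only the groups compared, 76 without the NoTag libraries and 19 to 41 with a library left out, and the 33 against Pax3 cells became 133, 55 after median centring, 11 without a filter, 12 without trend, 19 with the replicate block, 17 without the NoTag libraries and 1 to 12 with a library left out. Over all alternatives the counts ran from 52 to 409 (main 167) for Pax7-465 against Q+GL+, 48 to 280 (146) against Pax3, 9 to 109 (56) against Q–GL– and 3152 to 5744 (5001) for NoTag against Q–GL–. With a pseudocount of 0.1 the differences of Oacyl and Mybpc1 between Q–GL– and Q+GL+ cells were 2.13 and 1.98 in place of 1.80 and 1.65. Replicate numbers did not pair libraries (correlations of −0.16 to 0.17 over 15 pairs of groups), and with the number as a block 1 member, Ttyh1, passed in Pax7-465 against Q–GL– cells (adjusted p = 0.048) and no other member's call changed. With 2 libraries per group and unknown depth, small differences cannot be resolved. The causes of these changes were not tested.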
